A study of Mus musculus with 48 samples.

Results

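Limb bud mesoderm taken from mouse embryos 3 h after their dams received acetazolamide was compared with mesoderm from embryos of oil-treated dams. The comparison was chosen by the array titles and held 6 of the series' 48 arrays, 3 in each group. It covered the 10855 of 12488 probe sets that name 1 gene, which made 8252 genes. Pregnant mice were injected intraperitoneally on gestation day 9.5, either with acetazolamide at 400 mg/kg suspended in vegetable oil or with the oil vehicle. Right forelimb buds were collected, and ectoderm and mesoderm were parted with trypsin. Tissue of several litters went into each RNA sample, per the labels' protocols, although the sample descriptions call the extracts non-pooled. The labels give no mouse strain and no genotype. RNA was hybridised to Affymetrix MG-U74Av2 oligonucleotide arrays. The groups set beside this one, each of 3 arrays, were ectoderm of the same embryonic stage and treatment at 3 h, mesoderm and ectoderm 12 h after acetazolamide or oil, and mesoderm 3 h after cadmium sulfate at 4 mg/kg or its vehicle, phosphate-buffered saline (PBS). All embryos shared the day of injection and the right forelimb.

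Carbonic anhydrases convert carbon dioxide and water to bicarbonate and protons, and acetazolamide inhibits them. Given to pregnant rodents at the limb bud stage, the drug is known for loss of posterior digits, mostly in the right forelimb. The limb bud mesoderm forms the skeleton and connective tissue of the limb and is patterned by Sonic hedgehog from its posterior edge, by fibroblast growth factors from the ectodermal ridge and by bone morphogenetic proteins (BMPs) from both layers.

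The deposited values are ratios to oil arrays, not levels, and they are given here on a log2 scale. Oil arrays 1 and 2 summed to 2 for every probe set and oil array 3 was 1, so array 3 is 0 in log2 and arrays 1 and 2 mirror each other. The oil spread of a probe set is thus that between arrays 1 and 2 alone. With no levels, the mesoderm label could not be checked against its defining genes, and which genes stood above background is unknown. The log2 ratios of oil array 1 reached down to -3.38, against -1.29 in oil array 2. As the pair sums to 2, these ranges do not show which of the pair deviated. The acetazolamide arrays 1 to 3 reached down to -3.23, -2.44 and -2.70. The log2 ratio of the 3′ to the 5′ probe set of actin, a sign of RNA integrity, could be taken only relative to the oil denominators. It was 1.30, -0.24 and 0 in oil arrays 1 to 3 and 1.55, 1.10 and -0.03 in acetazolamide arrays 1 to 3. For Gapdh it was 0.52, -0.37 and 0 against 0.62, 0.80 and 0.50. Oil array 3 is 0 by construction, and arrays with different denominators cannot be ranked by these values. Treated arrays 1 and 2 correlated at 0.73 over the 8252 genes, and array 3 at 0.05 with array 1 and 0.23 with array 2. Arrays 1 and 2 are taken to share a denominator that array 3 does not, which raises the first value by construction, so these correlations do not show that array 3 stands apart. The same limit holds for each gene below. Each value is relative to its own denominator, so a high or low treated array 3 cannot be told from a shift in oil array 3. Overlap between groups is likewise judged across both denominators. The part of these differences between arrays in the gene results below was not tested. Calls among the listed and named genes that appear without oil array 1 are given beside the values with all arrays. No other array of this comparison, when left out, raised the count of calls, so such calls depend on which array is left out. Without oil array 1, no spread between oil arrays 1 and 2 remains in the fit. Adjusted p-values given without that array therefore do not measure it.

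At 3 h, 3 of 8252 genes rose in the mesoderm and 0 fell (0.0364% of genes, adjusted p under 0.05 in limma, whose test shares the spread over all 48 arrays). Slc6a15 encodes a carrier that brings branched-chain and other neutral amino acids into cells. Its log2 ratios were 0.04, -0.04 and 0 in the oil arrays and 0.89, 1.08 and 0.61 in the acetazolamide arrays. The 3 treated arrays lay far above the oil arrays, which spread little. The difference was 0.86 ± 0.14 (SE), a 1.82-fold increase (95% interval 0.57 to 1.15, adjusted p = 0.0107).

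Kyat3 encodes a kynurenine aminotransferase, which turns the tryptophan breakdown product kynurenine into kynurenic acid. The oil arrays gave 0.07, -0.07 and 0 and the acetazolamide arrays 0.63, 0.64 and 0.90. Treated arrays 1 and 2 were nearly equal, array 3 was higher, and no treated array overlapped an oil array. The difference was 0.72 ± 0.13, or 1.65-fold (95% interval 0.449 to 0.999, adjusted p = 0.0390).

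Atf6 encodes a membrane-bound transcription factor of the endoplasmic reticulum, which is cut and moves to the nucleus when unfolded proteins accumulate. It gave 0.01, -0.01 and 0 in oil and 0.53, 0.59 and 0.44 in acetazolamide. Here treated array 3 was the lowest of the 3, still clear of the oil arrays. The difference was 0.52 ± 0.10, or 1.44-fold (95% interval 0.31 to 0.73, adjusted p = 0.0484). With the array number as a block, 4 genes rose: these 3 and Gnb5, a G protein beta subunit, at 0.71 ± 0.13 (adjusted p = 0.0478). Without acetazolamide array 1 or array 2, 0 genes passed, while the differences stayed near those with all arrays. They were 0.88 and 0.77 for Slc6a15, 0.75 and 0.75 for Kyat3, and 0.53 and 0.49 for Atf6. Slc6a15 was called without any of the other 4 arrays. Leaving out oil array 3 or acetazolamide array 3 gave the same fit, since the arrays numbered 3 have their own denominator mean. Kyat3 and Atf6 were called only without oil array 1, in which case 141 genes passed, and without any other array their adjusted p ran from 0.0568 to 0.486 and from 0.0761 to 0.999.

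Of the 3 genes, 1 had an entry among the RefSeq promoters of build GRCm38.p6. The 250 bases before the start of the Kyat3 entry are at chr3:142700798-142701047 on the plus strand. Another annotation, whose build is not named, starts the gene at 142701019, inside this window. By that start the last CCACG printed lies within the gene. The window is shown because the letters CCACG, printed in capitals, are those of the endoplasmic reticulum stress element that ATF6 protein is known to bind.
Kyat3: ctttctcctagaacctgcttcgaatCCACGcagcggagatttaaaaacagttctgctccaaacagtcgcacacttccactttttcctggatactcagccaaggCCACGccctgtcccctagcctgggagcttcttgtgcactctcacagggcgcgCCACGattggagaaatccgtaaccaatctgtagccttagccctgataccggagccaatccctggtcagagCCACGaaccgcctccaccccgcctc
CCACG occurred 4 times, each on the printed strand, and 0 times on the other. Of 32851 windows of 250 bases in the same table, 28.3% held it on either strand at least once and 0.484% held it 4 times or more. The letters CCAAT, the other part of that element, occurred 3 times on both strands together, where 33.8% of windows held it at least once and 2.79% held it 3 times or more. TGATGNA, the core of the amino acid response element, occurred 0 times, and 10.4% of windows held it. The strands were searched separately, and a match describes the letters of this window, not a site. The distance between CCAAT and CCACG, which is fixed in that element, was not searched. These counts therefore do not show a complete element in the window.

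Past the called genes, 607 genes had an unadjusted p under 0.05 in limma, which is 7.36% of all genes: 379 higher (4.59%) and 228 lower (2.76%). The 3 treated arrays lay above all oil arrays for 770 genes (9.33%) and below them for 544 (6.59%). Over all genes 43.5% of differences were above 0, and their median was -0.03. The median 95% interval reached 0.29 to either side of a difference, so the arrays resolved changes of about that size for a single gene before adjustment.

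**Figure D1:**
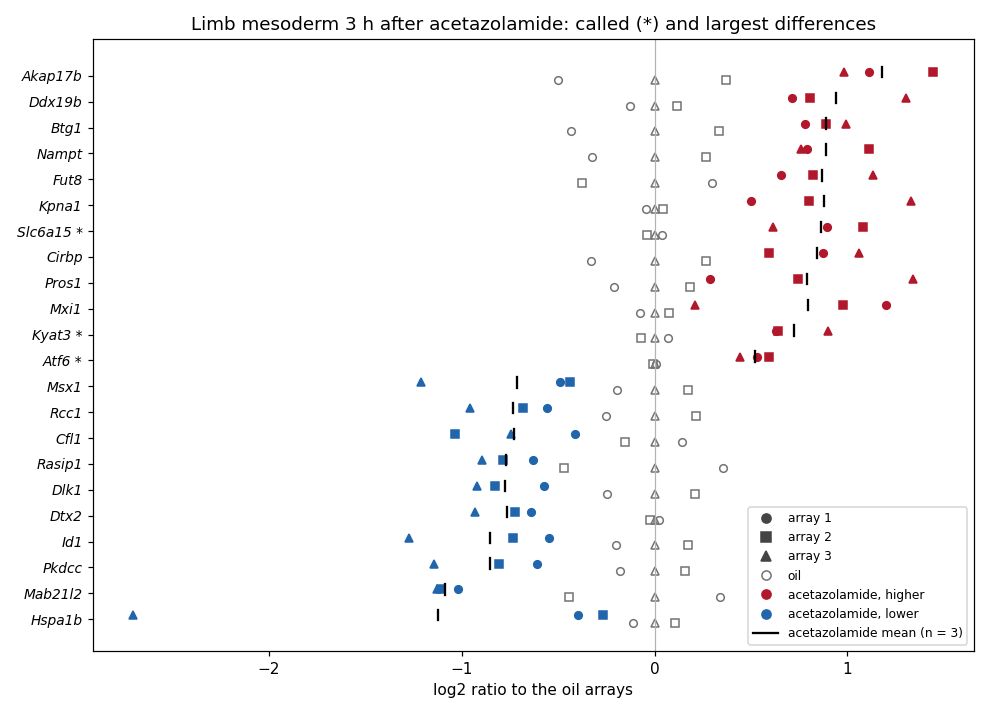
Log2 ratio to the oil arrays (horizontal axis) in each of the 3 oil arrays (open grey) and 3 acetazolamide arrays (filled), with the acetazolamide mean as a bar, for the genes that rose (*) and those with the largest differences. Hspa1b sits apart because its acetazolamide array 3 lies at -2.70, and the oil arrays of Slc6a15, Kyat3 and Atf6 lie within 0.07 of 0.

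The largest differences are given among genes with an unadjusted p under 0.05 in limma and no overlap between groups. Apart from Slc6a15, none of the genes with the 10 largest of these upward passed the adjusted test. Btg1, which restrains cell proliferation, was at -0.43, 0.33 and 0 in oil and at 0.78, 0.89 and 0.99 in acetazolamide. The treated arrays lay close together and above the wider spread of the oil arrays (0.92 ± 0.22, adjusted p = 0.275). Ddx19b, an RNA helicase of messenger RNA export, was at -0.13, 0.12 and 0 in oil and at 0.71, 0.80 and 1.31 in acetazolamide (0.94 ± 0.22, adjusted p = 0.275). Treated array 3 was its highest, as it was for Fut8, the core fucosyltransferase of glycoproteins, at 0.66, 0.82 and 1.13 (0.90 ± 0.26), and for Kpna1, a nuclear import receptor, at 0.50, 0.80 and 1.33 (0.88 ± 0.27). Mxi1, an antagonist of Myc, went the other way, at 1.20 and 0.98 in treated arrays 1 and 2 and 0.21 in array 3 (0.80 ± 0.23). Akap17b had the largest difference of all, 1.23 ± 0.41, with treated arrays at 1.11, 1.45 and 0.98. Its oil arrays spread from -0.50 to 0.37. Nampt, the enzyme that salvages nicotinamide to NAD, was at 0.91 ± 0.31, Cirbp, a cold-inducible RNA-binding protein, at 0.86 ± 0.27, and Pros1, the anticoagulant protein S, at 0.80 ± 0.27. Without oil array 1, Btg1, Ddx19b, Fut8 and Kpna1 passed the adjusted test (0.71 ± 0.18, 0.93 ± 0.20, 1.12 ± 0.21 and 0.92 ± 0.24, adjusted p = 0.0402, 0.0175, 0.0100 and 0.0430).

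Within the same limits, none of the genes with the 10 largest differences downward passed the adjusted test. Igf2bp1, an RNA-binding protein, had the lowest difference of all 8252 genes, -1.25 ± 0.86, but its groups overlapped. Mab21l2, a developmental regulator of the eye and body wall, was at 0.34, -0.44 and 0 in oil and at -1.02, -1.11 and -1.13 in acetazolamide. Its treated arrays agreed closely, while the oil arrays were spread more widely (-1.05 ± 0.32, adjusted p = 0.380). Pkdcc, a secreted kinase needed for long bone growth, was at -0.61, -0.81 and -1.14 in the treated arrays (-0.85 ± 0.31). Dtx2, a Deltex protein of Notch signalling, was at 0.02, -0.02 and 0 in oil and -0.64, -0.73 and -0.93 in acetazolamide (-0.77 ± 0.21, adjusted p = 0.366). Its treated arrays lay close together, oil arrays 1 and 2 differed little, and the groups did not overlap. Dlk1, an imprinted growth regulator (-0.76 ± 0.27), Rcc1, the exchange factor of the Ran GTPase (-0.72 ± 0.28), Cfl1, the actin-severing protein cofilin (-0.72 ± 0.28), and Rasip1, an endothelial Ras-interacting protein (-0.73 ± 0.31), followed. The heat shock gene Hspa1b, nearly identical in sequence to Hspa1a so that the probe set may measure both, had the largest value of these 10, -1.12 ± 0.47, of which most came from treated array 3, at -2.70 against -0.40 and -0.27 in arrays 1 and 2. Dtx2, Dlk1 and Rcc1 passed without oil array 1 (-0.78, -0.92 and -0.89, adjusted p = 0.0271, 0.0387 and 0.0483).

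Of the 9 carbonic anhydrases measured, the family that acetazolamide inhibits, 0 passed the adjusted test. Their median difference was -0.03, equal to that of all genes to 2 decimals, and 3 of 9 were above 0. Car12, a membrane-bound form, was at 0.06, -0.07 and 0 in oil and 0.29, 0.07 and 0.60 in acetazolamide, with treated array 2 just above the oil arrays (0.32 ± 0.12, adjusted p = 0.522). It passed without oil array 1 (0.40 ± 0.10, adjusted p = 0.0405). Car2, the abundant cytosolic form, was at 0.53 and 0.54 in treated arrays 1 and 2 and at -0.45 in array 3, so its arrays disagreed in direction (0.21 ± 0.18). Car14, another membrane form, was at 0.06 and -0.02 in arrays 1 and 2 and at -0.80 in array 3 (-0.25 ± 0.16). The other forms, Car1, Car3, Car4, Car5a, Car6 and Car8, lay between -0.09 and 0.02, each with oil and treated arrays that overlapped. The direction of Car1, Car3, Car5a, Car6, Car8 and Car14 turned under at least 1 alternative. Of 23 transporters of bicarbonate and protons 10 were above 0, with a median of -0.05. Slc4a4, a sodium bicarbonate cotransporter, was at -0.44, 0.34 and 0 in oil and -0.75, -0.69 and 0.03 in acetazolamide, and the groups overlapped (-0.44 ± 0.16, adjusted p = 0.549). Without oil array 1 it passed (-0.59 ± 0.15, adjusted p = 0.0393). Atp6v1d, a subunit of the vacuolar proton pump, was at 0.42, 0.57 and 0.44 in the treated arrays (0.48 ± 0.22, adjusted p = 0.653).

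Besides Atf6, the 33 other measured genes of the unfolded protein response did not pass. Of the 34 measured, 17 were above 0 and the median was 0.00. Xbp1, a transcription factor of the same response, was at -0.16 and -0.12 in treated arrays 1 and 2 and at -1.54 in array 3, overlapping the oil range of -0.21 to 0.18 (-0.60 ± 0.24, adjusted p = 0.583). Herpud1, which helps remove misfolded proteins, had the same shape, at -0.09, -0.11 and -0.80 (-0.33 ± 0.14). Creld2, an endoplasmic reticulum folding factor, was at -0.37, -0.53 and -0.64, below all oil arrays (-0.51 ± 0.24). Hspa5, the main chaperone of that compartment, was at -0.10, -0.07 and -0.28, overlapping the oil arrays (-0.15 ± 0.18, adjusted p = 0.870). Atf6 was the only member of the list called with all arrays.

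Among 34 genes of the response to amino acid shortage, 22 were above 0 and the median was 0.04, with 3 higher and 2 lower at an unadjusted p under 0.05 and 0 called. Asns, asparagine synthetase, was at 0.09, -0.10 and 0 in oil and 0.26, 0.26 and 0.51 in acetazolamide, and its pair of probe sets gave 0.36 and 0.33 (0.35 ± 0.13, adjusted p = 0.538). Lars, leucyl-tRNA synthetase, was at 0.20, 0.25 and 0.73 in the treated arrays (0.40 ± 0.16, adjusted p = 0.584). Both groups of arrays were separate for these genes, with array 3 highest. Transcription factors of the list had values on both sides of 0. Atf3 was at 0.02 ± 0.08, Cebpb at -0.15 ± 0.38 and Atf4 at 0.04, -0.06 and -0.43 in the treated arrays (-0.15 ± 0.26). Atf5 was at -0.23, -0.48 and -0.43 (-0.38 ± 0.17) and Cebpg at -0.59, -0.28 and -1.38 against -0.77, 0.50 and 0 in oil (-0.66 ± 0.31). Without oil array 1, Asns (0.43 ± 0.11), Lars (0.52 ± 0.13) and Cebpg (-1.12 ± 0.23) passed (adjusted p = 0.0393, 0.0430 and 0.0157). Of 21 amino acid transporters 9 were above 0 (median -0.03), and Slc6a15 was the only member with an unadjusted p under 0.05. Of 8 genes of tryptophan and kynurenine metabolism 4 were above 0 (median 0.01), and there Kyat3 was the only such member.

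Of the 29 BMP pathway genes measured, 6 were above 0 and the median was -0.12, beside 43.5% above 0 and a median of -0.03 over all genes. None was called. Targets of the pathway include the Id genes, which encode inhibitors of differentiation. Id1 was at -0.20, 0.18 and 0 in oil and at -0.55, -0.73 and -1.28 in acetazolamide, separate from oil and lowest in array 3 (-0.84 ± 0.25, adjusted p = 0.380). Id3 had treated arrays at -0.18, -0.42 and -1.34, of which array 1 was only just below the oil range of -0.13 to 0.12 (-0.64 ± 0.24, adjusted p = 0.538). Id2 was at -0.43, 0.33 and 0 in oil and -0.51, -0.28 and -0.71 in acetazolamide, so oil array 1 overlapped the treated arrays (-0.47 ± 0.15, adjusted p = 0.408). The homeobox targets Msx1 and Msx2 gave -0.71 ± 0.30 and -0.55 ± 0.28, each lowest in treated array 3, at -1.21 and -1.26. Without oil array 1, Id1 (-1.01 ± 0.21, adjusted p = 0.0157) and Id2 (-0.72 ± 0.10, adjusted p = 0.00072) passed. The ligands Bmp2, Bmp4 and Bmp7 lay at -0.01 ± 0.08, 0.12 ± 0.18 and -0.19 ± 0.24, with overlapping arrays. The receptors Bmpr1a and Acvr2a were higher in all 3 treated arrays, at 0.29, 0.39 and 0.90 (0.53 ± 0.22) and at 0.24, 0.56 and 0.42 (0.41 ± 0.19), and did not pass (adjusted p = 0.596 and 0.655). The receptor Acvr2b had a larger difference in the other direction, at -1.07, 0.61 and 0 in oil and -1.13, -0.87 and -0.92 in acetazolamide, with oil array 1 as low as the treated arrays (-0.82 ± 0.67, adjusted p = 0.835, and -1.31 without oil array 1, where it did not pass either). The receptors Acvr1, Bmpr1b and Bmpr2 lay at -0.05 ± 0.11, 0.02 ± 0.08 and -0.14 ± 0.10, with overlapping arrays. The antagonist Grem1 was at -0.18 ± 0.13.

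Of the 26 transcription factors of the limb axes measured, 7 were above 0, the median was -0.13 and 0 were called. Hand2, a factor of the posterior mesoderm that acts upstream of Sonic hedgehog, was at 0.01, -0.01 and 0 in oil and at -0.35, -0.38 and -0.38 in acetazolamide. The treated arrays lay close together and oil arrays 1 and 2 differed little, yet the test did not pass (-0.37 ± 0.14, adjusted p = 0.551). Shox2, a factor of the proximal limb skeleton, was at -1.75, 0.60 and 0 in oil and -1.93, -1.24 and -0.48 in acetazolamide, with array 1 the lowest in both groups (-0.83 ± 0.43, adjusted p = 0.698). Without oil array 1 Shox2 gave -1.45 ± 0.34 (adjusted p = 0.0271) and Irx3, a factor of anterior and proximal mesoderm, -0.98 ± 0.24 (adjusted p = 0.0387), against -0.42 ± 0.34 with all arrays. Sall4 was the one factor higher at an unadjusted p under 0.05, at 0.24, 0.52 and 1.40 against -0.41, 0.32 and 0 in oil (0.75 ± 0.30). Of 31 Hox genes, which set position along the limb, 10 were above 0 (median -0.11). Hoxd1 was at -0.60, 0.42 and 0 in oil and at 0.99, 1.02 and 0.20 in acetazolamide, and the groups overlapped (0.80 ± 0.21). Hoxd9 was at -0.33, 0.27 and 0 in oil and -0.84, -0.86 and -0.10 in acetazolamide, also with overlap (-0.58 ± 0.18). Hoxb6 was at -0.48, -0.75 and -0.52 in acetazolamide, below all oil arrays (-0.56 ± 0.19). None of the Hox genes passed with all arrays, and Hoxd9 passed without oil array 1 (-0.68 ± 0.17, adjusted p = 0.0347).

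In the Hedgehog list 6 of 12 genes were above 0 (median -0.01). The ligand gene Shh was at 0.08, -0.03 and 0.08 in the treated arrays (0.04 ± 0.12), and its targets Ptch1 and Gli1 at 0.02 ± 0.19 and -0.30 ± 0.18. Gli1 was at -0.31, -0.31 and -0.30 in the treated arrays against 0.08, -0.08 and 0 in oil, and did not pass (adjusted p = 0.782). Gas1, a cell surface protein that binds the ligand, was at 0.24, 0.43 and 0.50 (0.39 ± 0.18, adjusted p = 0.669). In the fibroblast growth factor list, 6 of 16 were above 0 (median -0.02) and 0 had an unadjusted p under 0.05 in limma. Fgf10, the mesodermal ligand, was at -0.03 ± 0.10. The retinoic acid list held 6 of 16 above 0 (median -0.05) and also 0 at that threshold.

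Secreted Wnt antagonists had values on both sides of 0 within a list of 36 genes, of which 12 were above 0 with a median of -0.06. Frzb was at -0.22, 0.19 and 0 in oil and 0.43, 0.63 and 0.69 in acetazolamide (0.59 ± 0.15, adjusted p = 0.366). Sfrp2 was at 0.58, 0.34 and 0.40 (0.44 ± 0.15), and Dkk3 at 0.39, 0.36 and 0.38 (0.38 ± 0.14). For these 3 the treated arrays were all above oil. Dkk1 was at -0.15 and -0.18 in treated arrays 1 and 2 and -1.31 in array 3, below oil arrays that differed by less than 0.01 (-0.55 ± 0.19). Sfrp1 was at -0.95, -0.76 and 0.11, overlapping oil at -0.73, 0.48 and 0 (-0.45 ± 0.19), and passed without oil array 1 (-0.72 ± 0.17, adjusted p = 0.0271). No Wnt gene passed with all arrays.

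Targets of p53 had the highest median of the 24 pathway lists, 0.25, with 10 of 14 above 0 and 4 higher, 0 lower at an unadjusted p under 0.05, beside 43.5% above 0, 4.59% higher and 2.76% lower over all genes. The treated arrays lay above all oil arrays for 4 members and below them for 2, beside 9.33% and 6.59% of all genes. The lowest member was at -0.52. Sesn1, a stress-induced sestrin, was at 0.08, -0.09 and 0 in oil and 0.67, 0.85 and 0.49 in acetazolamide, clear of oil (0.67 ± 0.19, adjusted p = 0.366). Zmat3, an RNA-binding target of p53, was at 0.27, 0.31 and 0.87 (0.49 ± 0.16), and Rrm2b, a ribonucleotide reductase subunit, at 0.51, 0.85 and 0.17 (0.51 ± 0.19). The Rrm2b probe set is of the kind that shares probes with other transcripts. Gadd45a was at 0.62 ± 0.30, with an oil array 1 of -0.67. The classic targets Cdkn1a and Mdm2 did not share the direction: Cdkn1a was at -0.63, -0.64 and 0.06 (-0.37 ± 0.27), and Mdm2 at -0.01 ± 0.16. None was called with all arrays, and Sesn1 passed without oil array 1 (0.69 ± 0.16, adjusted p = 0.0289).

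**Figure D2:**
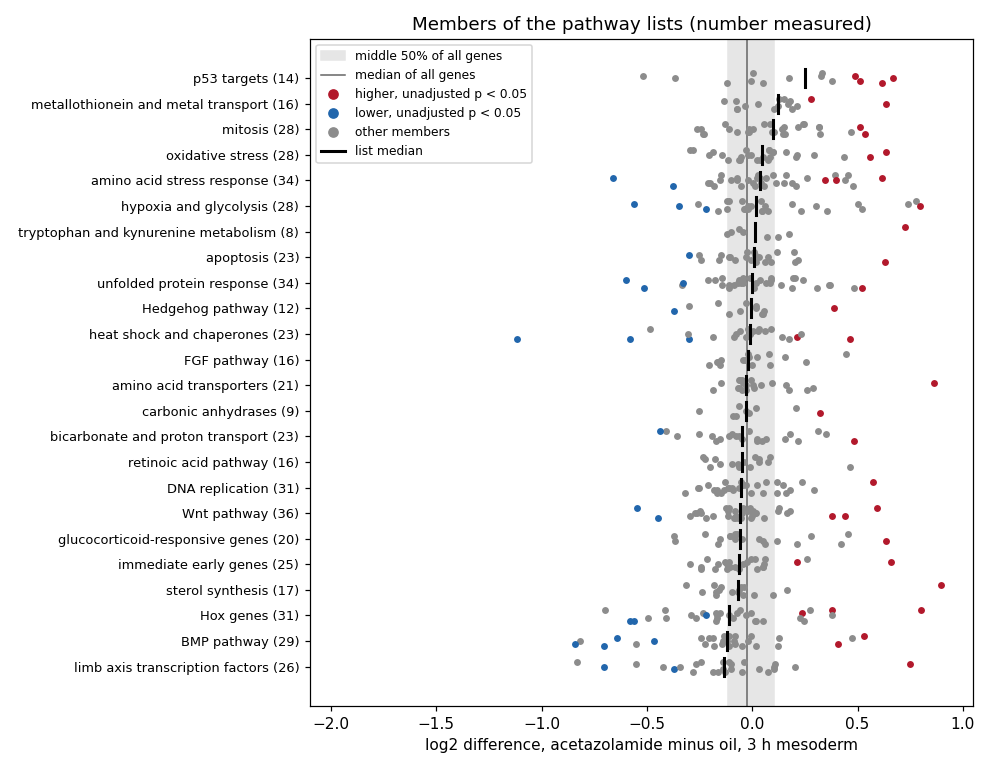
Log2 difference of each measured member (points) of the 24 pathway lists, with the list median as a black bar and the median and middle 50% of all 8252 genes in grey. Red and blue points have an unadjusted p under 0.05; p53 targets have the highest median (0.25) and limb axis transcription factors the lowest (-0.13).

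In the remaining lists, genes on both sides of 0 were found and none was called with all arrays. When oil array 1 was left out, the kinesin gene Kif4 of the mitosis list (0.60 ± 0.15, adjusted p = 0.0430), the heat shock gene Dnajb1 (-0.71 ± 0.16, adjusted p = 0.0239) and the sterol enzyme gene Hsd17b7 (-0.62 ± 0.16 against -0.24 ± 0.21 with all arrays, adjusted p = 0.0402) passed. Mitosis genes had a median of 0.10 (18 of 28 above 0). Kif4 and Nek2, both of chromosome segregation, were at 0.51 ± 0.17, with overlapping arrays, and at 0.53 ± 0.20. DNA replication genes had a median of -0.05 (11 of 31), with Rrm2 at 0.57 ± 0.27. Metallothionein and metal transport genes had a median of 0.12 (11 of 16). Mt2, a metal-binding protein, had treated arrays that differed widely, at 1.07, 0.60 and 0.15 against 0.31, -0.40 and 0 in oil (0.63 ± 0.29), and Slc30a4 had probe sets that disagreed, at -0.04 and 0.59. Among heat shock genes (10 of 23 above 0, median -0.01), Dnajb1 and Hspa8 were lower in all treated arrays (-0.58 ± 0.19 and -0.30 ± 0.13) and the co-chaperone Bag3 higher (0.46 ± 0.18). Hspa8 was steady, at -0.32, -0.30 and -0.29. Hypoxia and glycolysis genes had a median of 0.02 (14 of 28). Mxi1, given above, was the only member higher at an unadjusted p under 0.05, and Bnip3, of mitochondrial turnover, and the repressor Bhlhe40 were at 0.78 ± 0.39 and 0.50 ± 0.40 with overlapping arrays. The lower members at that threshold included Pfkl at -0.56 ± 0.25, with overlapping arrays, and Epas1 at -0.22 ± 0.10. Oxidative stress genes had a median of 0.04 (16 of 28), with the glutathione transferase Gsta4 at 0.56 ± 0.21 and its arrays overlapping. Apoptosis genes had a median of 0.01 (12 of 23), with Apaf1, of the apoptosome, at 0.55, 1.13 and 0.21 (0.63 ± 0.29). The survival gene Bcl2 was at -0.30 ± 0.15, with overlapping arrays. Sterol synthesis genes had one of -0.07 (4 of 17), where Sc5d was at 1.01, 1.55 and 0.07 (0.90 ± 0.34). Immediate early genes (9 of 25, median -0.06) included Ier3 at 1.09, 0.26 and 0.63 (0.66 ± 0.21) and Klf4, whose probe sets gave 0.04 and 0.38. Glucocorticoid-responsive genes had a median of -0.06 (9 of 20).

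No marker of the limb mesenchyme or of other cells in the bud was called with all arrays. Of 25 markers of surface ectoderm and ridge, 15 were above 0, the range was -0.18 to 0.24, the median 0.01, and 0 had an unadjusted p under 0.05 in limma. Limb mesenchyme markers had 3 of 17 above 0 and a median of -0.14, with Msx1, Hand2 and Twist2 lower at that threshold. Endothelial markers had 4 of 16 above 0 (median -0.11), with Tie1 at -0.40 ± 0.16 and its arrays overlapping. Red blood cell markers had 4 of 16 above 0 (median -0.08), macrophage markers 3 of 14 (median -0.05, Csf1r at -0.23 ± 0.10) and neural crest markers 4 of 7 (median 0.02). Of 10 genes of muscle progenitors, which migrate into the bud, 6 were above 0 (median 0.02). Pax3, which marks these migrating cells, was at -0.86 in both treated arrays 1 and 2 and at -0.06 in array 3 (-0.59 ± 0.18, adjusted p = 0.380). In tissue like this, fewer cells of a type and less RNA per cell cannot be told apart, and the part of cell makeup in the results was not tested.

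The next question was how far the mesoderm at 3 h differed from the ectoderm of the same stage, from mesoderm at 12 h and from mesoderm given cadmium. No gene passed in any of these differences of effects in limma. At an unadjusted p under 0.05 there were 140 genes (1.7%) for mesoderm against ectoderm, 191 (2.31%) for 12 h against 3 h and 232 (2.81%) for acetazolamide against cadmium, with smallest adjusted p = 0.300, 0.999 and 0.231. The median interval of a difference reached 0.41, 0.42 and 0.37 to either side, wider than for the effect itself. A missed threshold here does not show that the effects were alike.

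Slc6a15 was at 0.33 ± 0.14 in 3 h ectoderm, 0.21 ± 0.14 in 12 h mesoderm and 0.02 ± 0.11 after cadmium. Its effect was higher in mesoderm than in ectoderm by 0.53 (95% interval 0.13 to 0.94) and higher after acetazolamide than after cadmium by 0.84 (0.48 to 1.21), and the unadjusted intervals left out 0 (adjusted p = 1 and 0.231). Kyat3 was at 0.22 ± 0.13, -0.00 ± 0.14 and -0.12 ± 0.10 in the same groups, and at 0.56 ± 0.16 in 12 h ectoderm. Its difference from cadmium was 0.84 (0.49 to 1.19, adjusted p = 0.231) and from 12 h to 3 h -0.72 (-1.12 to -0.33, adjusted p = 0.999). Atf6 was at 0.16 ± 0.10, 0.04 ± 0.10 and 0.17 ± 0.08, and its 12 h effect was lower than its 3 h effect by -0.49 (-0.78 to -0.19, adjusted p = 0.999). The 3 genes were called by their values in 3 h mesoderm, so that these lie highest there is in part set by how they were picked.

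**Figure D3:**
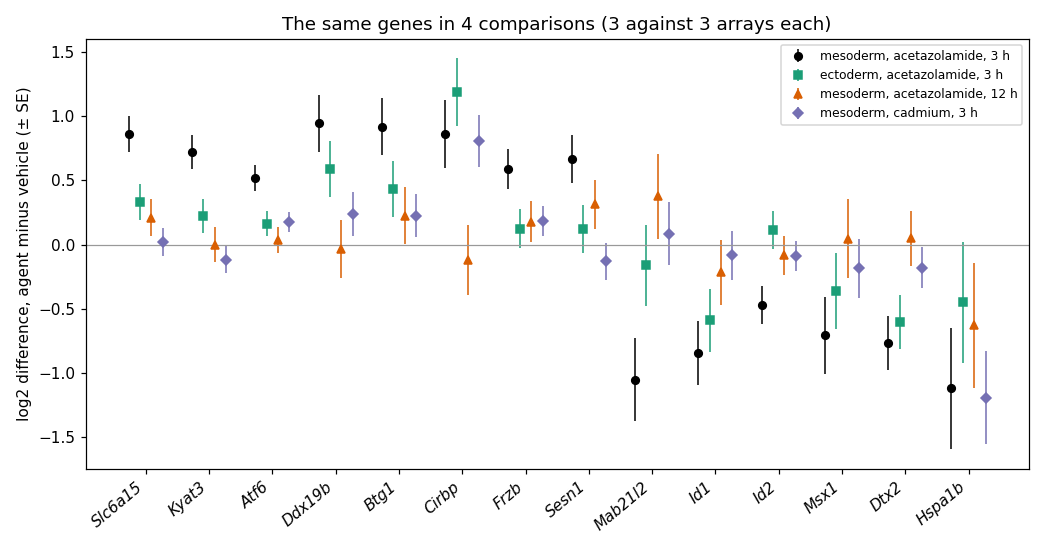
Log2 difference between agent and vehicle (± SE, 3 against 3 arrays) for 14 genes in 3 h mesoderm (black), 3 h ectoderm (green) and 12 h mesoderm (orange) after acetazolamide and in 3 h mesoderm after cadmium (purple). Cirbp has like values after acetazolamide and cadmium at 3 h in mesoderm, while Slc6a15 lies at 0.86 and 0.02. Hspa1b lies at -1.12 and -1.19, but its acetazolamide arrays differ widely (-0.40, -0.27 and -2.70).

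Across all 8252 genes the acetazolamide differences in 3 h mesoderm correlated at 0.52 with those in 3 h ectoderm, 0.38 with 12 h ectoderm, 0.07 with 12 h mesoderm and 0.28 with cadmium in 3 h mesoderm. These comparisons share no arrays, and genes are not independent replicates. Same-numbered arrays of mesoderm and ectoderm moved together (0.38 for the difference between treated arrays 1 and 2, and 0.46 for the oil arrays). The tissues may thus not be independent. The labels do not say whether they share litters, and the source of the shared movement was not tested. Of the 607 genes with an unadjusted p under 0.05, 85.3% had the same sign in 3 h ectoderm, beside 69.2% of all genes. In 12 h mesoderm it was 60.8% beside 48.8%. The 10 largest differences upward and the 10 downward all had the same sign in 3 h ectoderm, with medians of 0.49 and -0.44 there. In 12 h mesoderm 6 and 7 of them did, with medians of 0.13 and -0.24. Cirbp was higher in ectoderm, at 1.19 ± 0.26, and after cadmium, at 0.81 ± 0.20. Hspa1b was at -1.19 after cadmium and -0.45 in ectoderm. Its acetazolamide difference in 3 h mesoderm ran from -1.41 to -0.33 when 1 array was left out. Mab21l2, in contrast, was at -0.16 ± 0.32 in ectoderm and 0.09 ± 0.25 after cadmium. Its effect in 3 h mesoderm was below that in ectoderm by a difference of -0.89 (-1.82 to 0.04, mesoderm minus ectoderm) and below that of cadmium by one of -1.14 (-1.97 to -0.31, acetazolamide minus cadmium), and neither passed the adjusted test. Id1 was at -0.59 ± 0.24 in ectoderm and Id2 at 0.12 ± 0.15.

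Without oil array 1, 141 genes passed, 73 higher and 68 lower (1.71%, 0.885% and 0.824% of genes), and 1165 had an unadjusted p under 0.05 (14.1%). Slc6a15 (0.85 ± 0.12), Kyat3 (0.79 ± 0.11) and Atf6 (0.52 ± 0.09) were among them, with adjusted p = 0.00072, 0.00072 and 0.00354. Leaving out any other array of this comparison gave 0 to 2 calls. The fit without oil array 1 holds no spread between oil arrays 1 and 2, and its precision weights were computed anew. Its adjusted p-values thus leave that spread out. Same-numbered arrays moved together: the difference between arrays 1 and 2 correlated at 0.55 between acetazolamide and oil. Treated array 1 stayed in the fit, so a deviation shared by arrays numbered 1 can enter these differences. The 141 genes included some for which oil array 1 and treated array 1 were low together. Shox2 and Irx3, given above, are examples, and Meg3, a noncoding RNA, was at -1.47 in oil array 1 and -1.59, -1.39 and -0.55 in the treated arrays (-1.41 ± 0.28 without oil array 1, -0.87 ± 0.36 with it). If the numbering holds, treated arrays 1 and 2 and oil array 2 still carry oil array 1 in the denominator they share, which cancels in the difference between them. Whether the larger count follows from RNA integrity of that array was not tested.

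**Figure D4:**
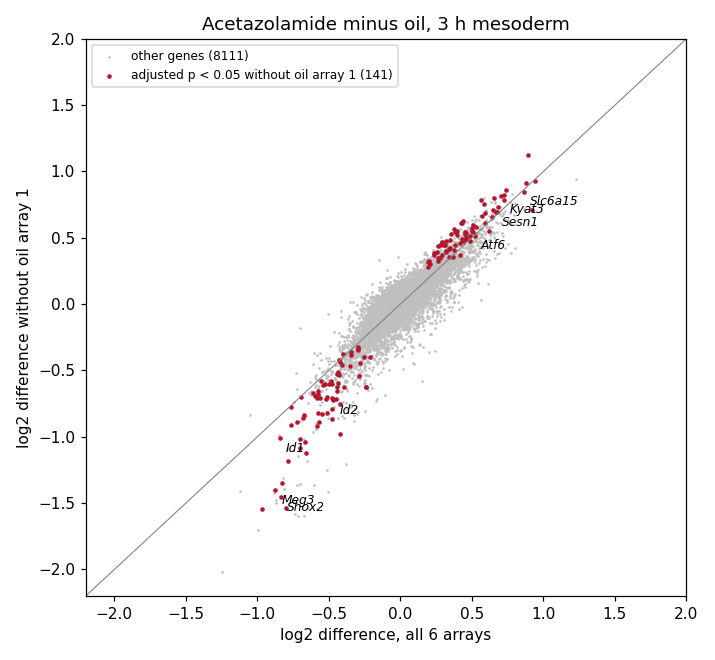
Log2 difference of each of 8252 genes with all 6 arrays (horizontal axis) and without oil array 1 (vertical axis), with the line of equality. The 141 genes that passed without that array are red; most of the lower ones lie under the line, as Id2 does at -0.72 against -0.47.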

How the data were processed

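RNA abundance was measured in 48 samples, 16 groups of 3, on MG-U74Av2 arrays. The values deposited by the authors are ratios to vehicle arrays, set per tissue and time. How they were made, and from which intensities, is not given in the sources used here. In all 8 comparisons vehicle arrays 1 and 2 summed to 2 and vehicle array 3 was 1. That treated arrays 1 and 2 share the first denominator is inferred from the numbering. Depth does not apply to arrays, and their number limits the precision.

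The ratios were taken to log2. Values of probe sets with a single gene name were averaged (2076 genes had more than 1 probe set); 396 probe sets named several genes and 1237 none. Probe sets were named from the platform annotation, and 10839 symbols were checked by Entrez identifier with 0 changed. Limma 3.58.1 in R 4.3.3 fitted all 48 arrays with 16 denominator means, 8 agent effects, 24 residual degrees of freedom and 1 precision weight per comparison, followed by eBayes. P-values were adjusted by Benjamini-Hochberg over 8252 genes, calls were made at 0.05, and 95% intervals are given. The fit was tested on simulated data with noise drawn independently for each array, so that test does not cover arrays that move together. P-values measure the spread between arrays, which hold pools of litters. An exact permutation test of 3 against 3 arrays cannot go below p = 0.1 and was not used.

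The labels repeat array numbers across groups. Deviations of same-numbered oil and acetazolamide arrays from their group means correlated at 0.40, 0.32 and 0.27, to which shared denominators add, and the difference between arrays 1 and 2, free of the denominator, at 0.55. The numbers were therefore treated as pairs in an alternative fit.

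The comparison, the gene lists and the tests were chosen with earlier results of these data known. Named genes were those called, the 10 largest differences in each direction among genes with an unadjusted p under 0.05 and no overlap between groups, up to 3 members of each list with the smallest p under 0.05, and every measured carbonic anhydrase. Other members were named after their values were seen, as were Gnb5, Igf2bp1, Meg3 and the genes named from the analysis without oil array 1. Lists are described by counts and medians, with no test.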

Additional observations from a re-analysis of the deposited data

How the results depend on the processing

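The count of 3 genes was 1 without precision weights, 0 with only the 6 arrays compared (786 genes at an unadjusted p under 0.05 in limma) and 1 with only arrays 1 and 2. In the paired analysis, with a replicate block, it was 4, with Gnb5 added and no call lost; the counts of the 3 differences of effects stayed at 0. Leaving out 1 array at a time gave 0 to 141 genes, and 0 to 2 for the difference from cadmium: 1 without oil array 1 and 2 without PBS array 3 or cadmium array 3. Leaving out either array numbered 3 of a comparison is the same fit. Leaving out 1 array left the tissue and time differences at 0. Slc6a15 lost its call with only the arrays compared (adjusted p = 0.303) and without acetazolamide array 1 (0.143) or 2 (0.486). Kyat3 and Atf6 also lost theirs without weights (0.0611 for both) and with only arrays 1 and 2 (0.275 for both), and Atf6 with each probe set tested on its own (0.0558) or arrays centred (0.0723). Of 72 named genes, 66 kept their direction under the alternatives run. Car14 was 0.0219 with only arrays 1 and 2, and Car5a was 0.00806 with arrays centred on their median. Leaving out 1 array gave ranges of -0.21 to 0.00873 for Car1, -0.19 to 0.0352 for Car3, -0.11 to 0.0832 for Car5a, -0.14 to 0.11 for Car6, -0.13 to 0.14 for Car8 and -0.38 to 0.0219 for Car14. Of 31 list medians 11 moved under some alternative. With only ratios deposited, no filter on dim probe sets was possible.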

Other observations

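Genes outside the lists that passed without oil array 1 included genes of the matrix and the cell surface in both directions. Leaving out any other array of this comparison gave 0 to 2 calls, so these passes depend on the array left out and are given as values only. Gpc3, a heparan sulfate proteoglycan that restrains growth, was at 0.86 ± 0.15 (adjusted p = 0.00505 in limma), Plat, the tissue plasminogen activator, at 0.76 ± 0.15 (0.0117) and Nid1, a basement membrane protein, at 0.54 ± 0.12 (0.0219). Fbn2, a fibrillin of microfibrils, was at -0.83 ± 0.19 (0.0266), Serpinh1, the collagen chaperone, at -0.54 ± 0.13 (0.0311) and Ddr2, a collagen receptor, at -0.51 ± 0.13 (0.0355). With all 6 arrays these were at 0.74, 0.58, 0.46, -0.55, -0.29 and -0.44, and none passed.

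Among the lower genes of the same analysis, E2f1, which drives entry into DNA synthesis, was at -0.89 ± 0.14 (adjusted p = 0.00141), Max, the partner of Myc, at -0.72 ± 0.17 (0.0296), Sp1, a general activator, at -1.55 ± 0.36 (0.0271) and Med1, a Mediator subunit, at -1.54 ± 0.33 (0.0175). With all arrays they were at -0.57, -0.47, -0.97 and -0.80, and none passed. Dlk1 and Meg3, which lie in the same imprinted cluster, were at -0.92 ± 0.23 and -1.41 ± 0.28 without that array. Apart from Dlk1, these genes were named after their values were seen.

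Of the 1633 probe sets that name several genes or none, 0 passed in limma, 55 had an unadjusted p under 0.05, and the smallest adjusted p was 0.804.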
